A study of Homo sapiens with 3 samples.

Results

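The cytosolic chaperonin CCT (also called TRiC) is a double ring built from the products of 8 genes: TCP1, CCT2, CCT3, CCT4, CCT5, CCT6A, CCT7 and CCT8. These 8 genes were chosen by name, 1 row each, from the 63241 genes in a ribosome profiling (Ribo-seq) table. Ribo-seq reads out the stretches of mRNA covered by a ribosome, called footprints, after the bare mRNA has been digested. The footprint count of a gene depends on how much of its mRNA is present and on how heavily ribosomes occupy it. Footprints alone do not separate these. Footprints of all 8 genes were more abundant in cells with either p53 mutant than in cells with WT p53, with log2 fold changes of 0.14 to 0.29 in G245S and of 0.056 to 0.24 in R273H.

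The cells were HEK293T, a line derived from human embryonic kidney in which the large T antigen of SV40, known to bind p53, is expressed. They expressed a WT, G245S or R273H p53 construct (both changes are hotspots in the DNA-binding domain), all groups alike on top of the line's own genes and T antigen, and all dishes received cycloheximide for 2 min to hold ribosomes on mRNA. There were 3 dishes per group, each carrying its own linker barcode, and the dishes of a group were pooled at reverse transcription, 1 pool per group. Group and pool cannot be told apart, the dishes share each group's cell line, and n = 3 below always counts dishes. The labels describe the cells as stable lines in one place and as transient expression in another, while the paper describes stable lines for the Ribo-seq. The number of clones behind a line is not given in the sources used here. Cells lacking any construct were not analysed here.

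CCT encloses newly made polypeptides in a chamber that opens and closes with ATP, and actin and tubulin are the clients that depend on it most. Each ring holds 1 copy of every subunit in a fixed order, so the particle needs its 8 products in equal number. TCP1, CCT4, CCT2 and CCT5 sit side by side in the part of the ring that binds ATP tightly, and CCT7, CCT8, CCT6A and CCT3 sit in the part that binds it weakly. Prefoldin and phosducin-like proteins hand over clients or help with their release, the tubulin cofactors take on tubulin that has left the chaperonin, and the folding of p53 has itself been linked to CCT.

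The genes are scattered over 7 chromosomes (GRCh38, GENCODE v44). TCP1 lies on chr6:159778498-159789703 and CCT2 on chr12:69585426-69601570. CCT3 lies on chr1:156308968-156367873 and CCT5 on chr5:10249929-10266389. CCT4 (chr2:61868085-61888671) and CCT7 (chr2:73233420-73253021) share a chromosome at a distance. CCT6A lies on chr7:56051685-56063989 and CCT8 on chr21:29055805-29073797. The encoded proteins are alike in size, with coding regions of 1593 nt (CCT6A) to 1668 nt (TCP1) against a median of 1269 nt for protein-coding genes. Their GC content ran from 41.7% in CCT8 to 51.5% in CCT7, all under the median of 52.9%.

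Because the genes moved together, the start-site windows in RefSeq (GRCh38.p14, 250 bases before to 50 after a start) were searched on both strands for 8 motifs, with 7 of the 8 genes matched. For each gene with a heat shock element or a CCAAT box, the 30 bases around the hit nearest to the start are shown, as examples of motifs that several of the genes hold. CCT3 has a second CCAAT box in the same window, which is not printed, and the GC box, a short motif found near the starts of many genes, is not printed either. Heat shock elements are read by heat shock factors, and CCAAT boxes by nuclear factor Y. Capitals mark the motif as read on the strand of the gene, so a CCAAT box on the opposite strand appears as its reverse complement, ATTGG. The inward heat shock element (GAANNTTC) was found in TCP1 (chr6:159789815-159789844) and in 1 of the CCT2 windows (chr12:69585789-69585818), and the outward one (TTCNNGAA) in CCT4, after its start (chr2:61888607-61888636).
TCP1 heat shock element: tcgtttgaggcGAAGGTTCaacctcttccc
CCT2 heat shock element: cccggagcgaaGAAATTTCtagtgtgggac
CCT4 heat shock element: cccgacgccggcgccgctTTCTGGAAggtt
TCP1 CCAAT box: catcggctatctaATTGGacaaaaatgccg
CCT2 CCAAT box: ggcccgtggggctCCAATcaaaatgggacg
CCT3 CCAAT box: gatgggtgcggtgATTGGcgactaccttga
CCT8 CCAAT box: aaagggtgggctaATTGGagagccaggaag

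The CCAAT box windows lie at chr6:159789740-159789769 (TCP1), chr12:69585355-69585384 (CCT2), chr1:156338310-156338339 (CCT3) and chr21:29073695-29073724 (CCT8). The inward heat shock element was present in 2 of the 7 genes against 8.2% of 27305 genes with a window, and the outward one in 1 of 7 against 9.5%. CCAAT was present in 4 of 7 genes against 39.7%. The GC box (GGGCGG) was present in 5 of 7, namely CCT2, CCT3, CCT7, CCT8 and TCP1, against 48.3%, and the ETS core (CCGGAAGT) in CCT2 alone against 4.9%. The E-box (CACGTG), the TATA box (TATAAA) and the p53 half-site were found in 0 of the 7 genes, against 8.8%, 14.0% and 8.1% of genes. The motifs do not overlap one another in the windows shown, and a match describes letters only.

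The 9 libraries held 18.7 to 24.6 M counts, and 19820 genes passed the filter on low counts, all 8 CCT genes among them. The p53 targets CDKN1A and MDM2 were lower in all 6 mutant libraries than in WT, with log2 fold changes of -1.92 and -3.48 in G245S and -2.14 and -3.49 in R273H. The epithelial keratins KRT8 and KRT18 were present (32.4 to 120 CPM) while KRT19 stood at 0.0508 CPM or less, and the kidney marker PAX8 was at 0.102 CPM or less. Of the other 4 kidney markers, GATA3 (38.3 to 46.4 CPM) was the most abundant, and WT1, PAX2 and LHX1 ran from 3.06 to 16.1 CPM. Among 6 markers of blood, endothelium, fibroblasts and liver, PTPRC, PECAM1, CDH5 and ALB stayed at or below 0.163 CPM, and COL1A1 and COL3A1 were above 1 CPM throughout. Their summed level ran from 35.5 to 39.1 CPM in WT, from 28.5 to 34.4 CPM in G245S and from 31.1 to 33.0 CPM in R273H, and the part of this in the results below was not tested. In bulk lysates, more cells with a footprint and more footprints per cell cannot be told apart.

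Footprint levels are given as CPM, counts scaled to a common library total with TMM factors, and n = 3 dishes per group throughout. TCP1, the alpha subunit, gave 607, 608 and 634 CPM in the WT dishes, 756, 737 and 768 CPM in G245S, and 721, 720 and 747 CPM in R273H. Every mutant dish lay above every WT dish, and TCP1 had the largest increase of the 8 genes in both mutants. The share of all genes with such a separation of dishes was not computed, for TCP1 or for the genes that follow. Its log2 fold change was 0.29 (SE 0.025, 1.22-fold) in G245S and 0.24 (SE 0.024, 1.18-fold) in R273H, with adjusted p of 3.46e-10 and 9.79e-09 (edgeR quasi-likelihood test, Benjamini-Hochberg over all 19820 genes). CCT4, the delta subunit, which can form rings on its own when expressed alone, gave 928, 940 and 985 CPM in WT, 1073, 1061 and 1074 CPM in G245S, and 1038, 1025 and 1064 CPM in R273H. The mutant dishes again stood apart from WT, by 0.17 on the log2 scale in G245S (SE 0.024, adjusted p = 3.50e-06) and by 0.13 in R273H (SE 0.024, adjusted p = 8.48e-05).

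CCT2, the beta subunit, which also acts outside the ring as a receptor for protein aggregates in autophagy, gave 827, 843 and 875 CPM in WT, 957, 946 and 964 CPM in G245S, and 944, 939 and 975 CPM in R273H. The groups with mutant p53 lay on top of each other and above WT. CCT2 rose by 0.17 on the log2 scale in G245S (SE 0.024, adjusted p = 2.82e-06) and by 0.17 in R273H (SE 0.024, adjusted p = 3.29e-06). CCT5, the epsilon subunit and the other one known to form rings by itself, gave 641, 649 and 663 CPM in WT, 767, 774 and 778 CPM in G245S, and 734, 746 and 765 CPM in R273H. It showed the second largest increase in G245S, with no overlap between WT and either mutant. On the log2 scale CCT5 gained 0.25 in G245S (SE 0.023, adjusted p = 1.90e-09) and 0.20 in R273H (SE 0.023, adjusted p = 9.22e-08).

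On the weakly ATP-binding side, CCT8, the theta subunit, gave 703, 700.3 and 738 CPM in WT, 842, 823 and 856 CPM in G245S, and 824, 809 and 851 CPM in R273H. The lowest mutant dish was still well above the highest WT dish. CCT8 rose by 0.24 on the log2 scale in G245S (SE 0.025, adjusted p = 3.33e-08) and by 0.21 in R273H (SE 0.025, adjusted p = 1.60e-07). CCT3, the gamma subunit, gave 1100, 1116 and 1164 CPM in WT, 1299, 1297 and 1314 CPM in G245S, and 1244, 1254 and 1288 CPM in R273H. All 3 groups were separate, with G245S highest, although the step between the mutants did not pass the test. Against WT, CCT3 gained 0.21 on the log2 scale in G245S (SE 0.023, adjusted p = 5.37e-08) and 0.16 in R273H (SE 0.023, adjusted p = 3.10e-06).

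CCT6A, the zeta subunit, has a testis-enriched paralog, CCT6B, which stood at 3.79 ± 0.617 CPM in WT (SD) and was not called in either mutant. CCT6A itself gave 654, 676 and 701 CPM in WT, 765, 754 and 775 CPM in G245S, and 739, 727 and 778 CPM in R273H, the widest spread within R273H of the 8 genes. The mutant and WT dishes did not overlap, and the rise on the log2 scale was 0.18 in G245S (SE 0.027, adjusted p = 1.58e-05) and 0.14 in R273H (SE 0.027, adjusted p = 0.000169). CCT7, the eta subunit, gave 1078, 1085 and 1116 CPM in WT, 1216, 1201 and 1204 CPM in G245S, and 1131, 1133 and 1145 CPM in R273H. The R273H dishes sat just above the highest WT dish and well below the G245S dishes. CCT7 thus had the smallest increase in both mutants, at 0.14 on the log2 scale in G245S (SE 0.021, adjusted p = 8.88e-06) and 0.056 in R273H (SE 0.021, 1.04-fold, adjusted p = 0.0482).

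**Figure D1:**
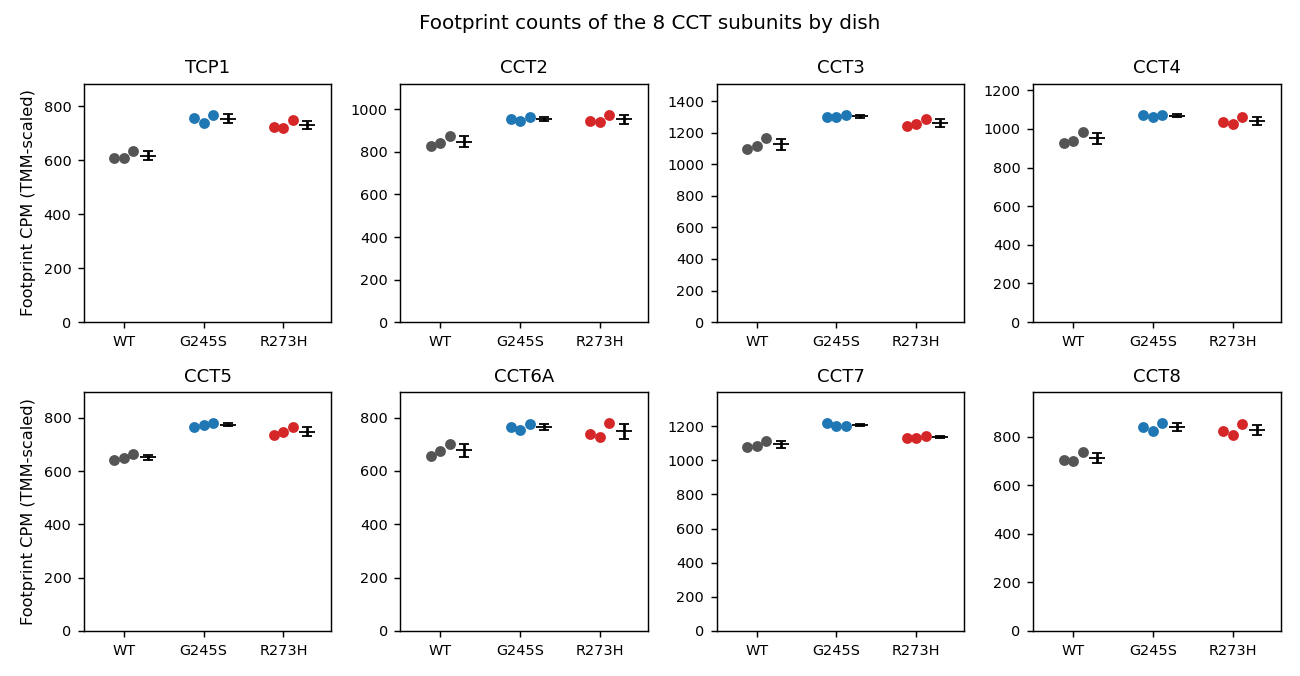
Footprint CPM (TMM-scaled, axes from 0) of each CCT subunit in the 3 dishes of WT (grey), G245S (blue) and R273H (red), with mean ± SD (n = 3 dishes) in black to the right of the points. Every mutant point lies above every WT point of the same gene, by the least for CCT7 in R273H (lowest 1131 CPM, highest WT dish 1116 CPM). How many other genes show such a separation was not computed.

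Across the family, 8 of 8 genes were called higher in G245S, where 12.6% of all genes tested were called higher and 12.1% lower. All 8 lay in the highest of 10 bins of mean expression, in which 35.4% of genes were called higher. The median log2 fold change of the 8 genes was 0.19, beside -0.00069 for all genes tested and 0.033 for that bin. In R273H 8 of 8 were called higher, where 14.2% of all genes were called higher, 14.6% lower, and 33.4% of the highest bin higher. There the medians were 0.17 for the CCT genes, -0.0024 for all genes and 0.016 for the highest bin. The comparisons share the WT dishes, so they are not 2 independent observations. Of all genes tested, 11.5% had a larger log2 fold change than TCP1 in G245S and 39.4% a larger one than CCT7 in R273H. No CCT gene passed a test against a minimum change of 1.2-fold in either mutant (edgeR glmTreat, 0 of 8, 1 of 8 in G245S and 0 of 8 in R273H at an unadjusted p under 0.05 of that test). Few genes passed it at all, 547 of 19820 in G245S and 693 in R273H.

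A third-dish pattern was seen within groups. Dish 3 gave the highest CPM of the group for 8 of 8 CCT genes in WT, 7 of 8 in G245S and 8 of 8 in R273H. How many of all genes were highest in dish 3 was not computed, so the pattern may not be particular to these 8. Without dish 3 of every group, 8 of 8 genes were still called higher in both mutants, with medians of 0.22 and 0.18.

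CCT7 carried the one difference called between the mutants. The G245S dishes (1201 to 1216 CPM) did not overlap those of R273H (1131 to 1145 CPM), and the log2 fold change of G245S against R273H was 0.087 (SE 0.021, 95% interval 0.044 to 0.13, adjusted p = 0.0217). Between the mutants 2.59% of all genes tested were called in either direction, and 1.86% of all genes tested were called higher in G245S. The other 7 genes ranged from 0.0047 in CCT2 (95% interval -0.044 to 0.053, adjusted p = 0.955) to 0.048 in CCT5 (0.0011 to 0.094, adjusted p = 0.303). CCT3 and CCT5 did not overlap between the mutants, and TCP1, CCT2, CCT4, CCT6A and CCT8 did. The share of all genes whose dishes are separate was not computed, here or against WT. Such separation may thus not be particular to the CCT genes. The upper bounds of the 7 intervals reached at most 0.097 on the log2 scale, and a missed threshold does not show that the mutants act alike.

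Both calls that rest on CCT7 in R273H lie near the threshold. Against WT, its adjusted p was 0.0533 with no filter on low counts and 0.0560, 0.0710, 0.150, 0.0934, 0.0948 and 0.135 without dish 1 of G245S, dish 2 of G245S, dish 2 of WT and dishes 1, 2 and 3 of R273H, while without dish 1 of WT the log2 fold change was 0.045 (adjusted p = 0.186). Against G245S, the call was lost with no filter (adjusted p = 0.0600) and without dishes 1 or 2 of G245S (0.121 and 0.0957) or dishes 1, 2 or 3 of R273H (0.118, 0.0941 and 0.0539). The log2 fold change of CCT7 between the mutants stayed within 0.080 to 0.097 over all 20 alternatives.

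**Figure D2:**
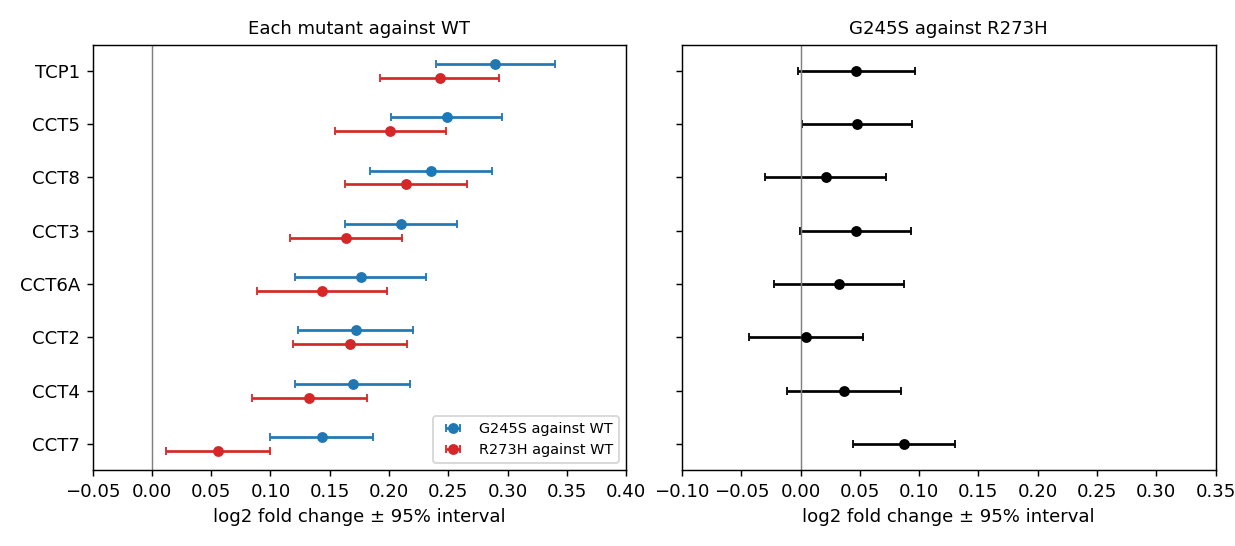
Log2 fold changes (points) with 95% intervals from the edgeR fit for the 8 CCT genes, at left for G245S (blue) and R273H (red) against WT and at right for G245S against R273H. Intervals at left all lie above 0, from TCP1 (0.29 in G245S) down to CCT7 (0.056 in R273H), and at right CCT7 (0.087) lies farthest from 0.

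Since the ring takes its subunits in equal number, levels were also compared between genes as CPM per kb of coding length. The order from high to low was CCT3, CCT7, CCT4, CCT2, CCT8, CCT6A, CCT5 and TCP1 in 7 of the 9 libraries. In dish 2 of G245S and of R273H, CCT5 and CCT6A changed places. In WT, CCT3 stood at 689 ± 20.5 CPM per kb (SD, n = 3) and TCP1 at 370 ± 9.32 CPM per kb, a ratio of highest to lowest of 1.86 ± 0.0152. CCT3 and CCT7 (671 ± 12.3 CPM per kb) overlapped in the WT dishes, as did CCT8 (434 ± 12.8) and CCT6A (425 ± 14.7), and all other neighbours in the order were separate. In both mutants the only neighbours whose dishes overlapped were CCT6A and CCT5, at 480 ± 6.57 and 476 ± 3.55 CPM per kb in G245S and 470 ± 16.7 and 461 ± 9.53 CPM per kb in R273H. Within every dish CCT3 lay above CCT7.

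The subunits were somewhat more even in the mutants. The ratio of highest to lowest was 1.77 ± 0.0266 in G245S and 1.77 ± 0.00914 in R273H, below each of the 3 WT dishes (1.85, 1.87 and 1.87). The coefficient of variation over the 8 subunits was 24.3% ± 0.0180 in WT, 22.3% ± 0.462 in G245S and 21.6% ± 0.506 in R273H, without overlap between WT and either mutant. TCP1, the lowest subunit, went from 9.0% ± 0.0538 of the summed CPM per kb in WT to 9.58% ± 0.109 in G245S and 9.55% ± 0.0185 in R273H. CCT7, the second highest, went from 16.3% ± 0.134 to 15.7% ± 0.154 and 15.2% ± 0.190. These shares follow from the changes per gene above and were given no test. The ratios depend on which length is used, since with the exonic length of the canonical transcript they came to 2.99 in WT and 2.81 in both mutants, CCT5 having the longest exonic length (3293 nt). Whether the counts cover whole transcripts or coding regions is not given in the sources used here.

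**Figure D3:**
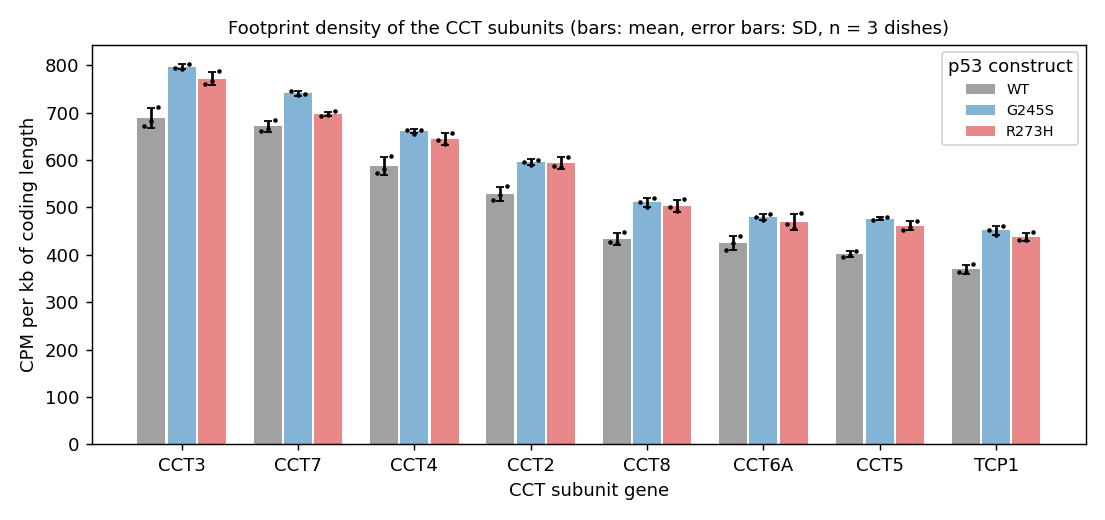
Footprint density of the CCT subunits as CPM per kb of coding length, with bars for the group mean, error bars for the SD (n = 3 dishes) and dots for the dishes. The order of the subunits is that of WT, from CCT3 (689) to TCP1 (370), and the mutant bars exceed the WT bar for each subunit.

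Together the 8 genes took 0.670% ± 0.0131 of all library counts in WT (dishes 0.658%, 0.668% and 0.684%). In G245S they took 0.759% ± 0.00615 (0.757%, 0.754% and 0.766%), and in R273H 0.746% ± 0.0105 (0.742%, 0.739% and 0.758%). The mutant dishes lay above the WT dishes, and the mutants overlapped each other. The lowest count of any CCT gene in any library was 11499, for which the counting error is 0.933%. The spread between dishes was of like size for several genes in G245S, such as CCT7 (SD 8.06 on a mean of 1207 CPM). Over the 8 genes, Spearman's rho between the log2 fold change and the coding GC content was -0.43 in G245S and -0.69 in R273H, the genes sharing the same libraries. With trends in coding length and GC removed per library, all 8 genes were still called in both mutants, at 0.15 to 0.29 in G245S and 0.063 to 0.20 in R273H. In that fit TCP1 was also called between the mutants (0.089, adjusted p = 0.00805).

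Near-identical copies make some of these counts estimates. The table lists 15 rows named as CCT pseudogenes, and their summed counts came to 4.75% to 5.60% of those of CCT6A (5 rows), 1.65% to 2.16% of those of CCT8 and 1.33% to 1.91% of those of TCP1. For CCT5 and CCT7 the share was at most 1.19% and 0.889%, for CCT4 at most 0.657%, for CCT3 at most 0.0098%, and CCT2 had no such row. Single rows above 1% of their parent were CCT8P1 (1.89%), CCT6P2 (1.61%) and 2 rows named CCT6P3 (1.23% and 1.44%). Windows of 30 coding bases, about the length of a footprint, were looked up in these named rows. Those found there made up 33.3% of the coding windows in TCP1, 30.0% in CCT8, 29.2% in CCT6A, 19.3% in CCT5, 8.7% in CCT7, 1.6% in CCT4 and 0% in CCT2 and CCT3. Copies under other names were left out, such as a pseudogene sharing 95 windows with TCP1 and a long noncoding RNA sharing 145 with CCT6A. No such window was shared between the 8 genes. The first 30 coding bases of CCT8 and the matching stretch of CCT8P1 (chr1:147203276-147204932, minus strand, GENCODE transcripts) are set side by side as an example of a stretch where the pair is nearly identical, with capitals marking the 1 base that differs. In an alignment without gaps, 703 of 1644 coding bases differed, and the longest identical run was 80 nt. Any insertion or deletion puts such an alignment out of register, so the 703 does not measure how alike the pair is elsewhere.
CCT8: atggcgcttcaCgttcccaaggctccgggc
CCT8P1: atggcgcttcaAgttcccaaggctccgggc

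With the counts of the rows named as CCT pseudogenes added to their parent before the fit, 8 of 8 genes were called in both mutants. The log2 fold changes were 0.14 to 0.29 and 0.057 to 0.25. TCP1 overlaps ACAT2 on the other strand by 615 nt at the 3′ ends. ACAT2, an enzyme of acetyl-CoA metabolism, stood at 186 to 209 CPM, at most 31.8% of TCP1, and since the handling of strand is not given in the sources used here, footprints in the shared stretch cannot be assigned. TSACC, inside CCT3 on the other strand, reached 5.12 CPM at most, and SNORA20 inside TCP1 3.15 CPM.

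The genes around the chaperonin are given by counts, to be read beside the shares over all genes tested, which were 12.6% (higher) and 12.1% (lower) for G245S, with 14.2% and 14.6% for R273H. Of the 17 actin and tubulin genes, the main clients, G245S had 12 called higher and 0 lower (list median 0.16), and R273H had 8 called higher and 1 lower (median 0.12). In the highest expression bin, where several of these genes lie, 35.4% and 33.4% of genes were called higher. The largest changes were in TUBA4A, an alpha-tubulin, from 22.8 ± 0.102 CPM in WT to 35.1 ± 0.688 in G245S and 33.8 ± 0.339 in R273H (log2 fold changes 0.62 and 0.57, adjusted p = 4.73e-10 and 1.75e-09), and in TUBB2B, a beta-tubulin, from 126 ± 5.67 to 189.7 ± 3.36 and 188 ± 4.32 CPM (0.59 and 0.58, adjusted p = 2.24e-14 and 2.39e-14). Several tubulin genes are close paralogs, so reads shared among them are uncertain.

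Of the 6 prefoldin subunits 0 were called higher and 2 lower in each mutant. PFDN1 fell from 98.5 ± 1.07 CPM to 84.6 ± 2.99 in G245S and 91.6 ± 2.02 in R273H (log2 fold changes -0.22 and -0.10, adjusted p = 3.63e-05 and 0.0236), and PFDN5 from 236 ± 7.86 to 214 ± 1.78 and 223 ± 4.96 CPM (-0.14 and -0.080, adjusted p = 0.000488 and 0.0333). Of 3 phosducin-like genes tested, 2 were lower in G245S and 1 in R273H. PDCL3, which binds CCT and is linked to actin and tubulin folding, had -0.29 on the log2 scale in G245S (SE 0.046, adjusted p = 1.64e-05) and -0.29 in R273H (SE 0.044, adjusted p = 8.97e-06), while PDCL had -0.18 (adjusted p = 0.00941) and -0.062 (adjusted p = 0.384). The median over all genes tested was near 0 in both comparisons, so list medians of -0.087 and -0.056 for prefoldin and 0.16 and 0.12 for actin and tubulin lie on opposite sides of it.

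Among the 6 tubulin cofactors, G245S had 2 called higher and 2 called lower, and R273H had 1 and 4. TBCB, which binds alpha-tubulin after its release, went from 89.0 ± 4.18 CPM in WT to 81.9 ± 0.951 in G245S and 72.3 ± 1.74 in R273H (log2 fold changes -0.12 and -0.30, adjusted p = 0.0211 and 5.42e-07). TBCC, which triggers release of the finished tubulin dimer, had -0.17 (adjusted p = 0.0143) and -0.16 (adjusted p = 0.0176). Of 13 other clients, 3 rose and 1 fell in G245S, and 1 rose and 3 fell in R273H. Over all genes tested, 12.6% rose and 12.1% fell in G245S, with 14.2% and 14.6% in R273H. STAT3, a transcription factor, fell by 0.41 and by 0.40 on the log2 scale (adjusted p = 1.21e-10 and 1.13e-10), and GNB2, a G protein beta subunit, had -0.072 with G245S (adjusted p = 0.108) and -0.19 with R273H (adjusted p = 5.37e-05). The 4 chaperonin-like genes that were tested (CCT6B, MKKS, BBS10 and BBS12) were not called in either mutant (edgeR, lowest adjusted p 0.0921), with 0 and 1 at an unadjusted p under 0.05, and DESeq2 called 0 of them as well.

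The mitochondrial chaperonin, a relative of CCT with a single kind of subunit and a lid, was called higher in both mutants. HSPD1, its ring subunit, went from 1842 ± 60.9 CPM in WT to 2184 ± 23.2 in G245S and 2193 ± 24.9 in R273H (log2 fold changes 0.25 and 0.25, adjusted p = 1.80e-09 and 1.06e-09), and HSPE1, its lid, had 0.079 and 0.086 (adjusted p = 0.0299 and 0.0148). Of 12 heat shock response genes, 6 rose and 2 fell in G245S (median 0.050), while 4 rose and 3 fell in R273H (median -0.0046). In the highest expression bin 35.4% and 33.4% of genes were called higher, and the share called lower there is not given here. How many of the 12 genes lie in that bin is not given either. HSPB1, a small heat shock protein, went from 83.0 ± 5.28 to 117 ± 2.86 and 107 ± 6.18 CPM (0.50 and 0.37, adjusted p = 1.37e-08 and 1.06e-06). HSPH1, a nucleotide exchange factor for HSP70, had 0.18 and 0.26 (adjusted p = 1.32e-05 and 4.81e-08), and HSF1, the factor that reads heat shock elements, had -0.016 and 0.036 and was not called.

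**Figure D4:**
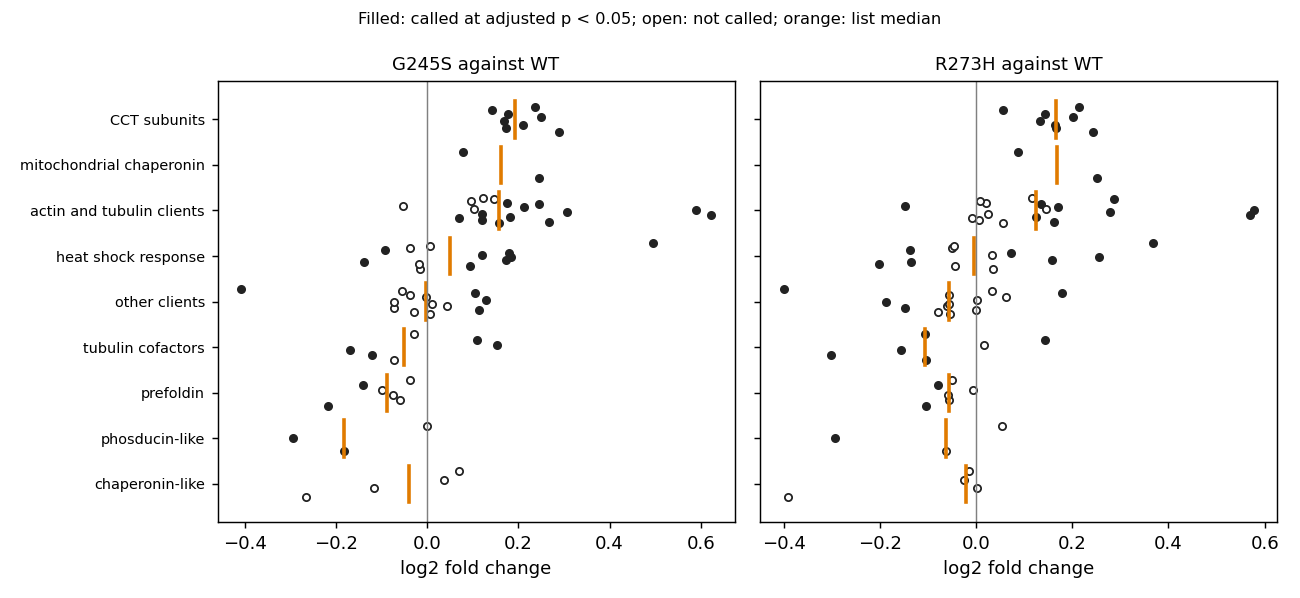
Log2 fold changes of G245S (left) and R273H (right) against WT for the CCT subunits and the lists around them, one point per gene tested, filled where called at an adjusted p under 0.05, with an orange bar for the list median. All 8 CCT points lie right of 0 and are filled, the actin and tubulin clients lie mostly to the right, and prefoldin and the phosducin-like genes lie mostly to the left.

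Over the 9 libraries, each CCT gene followed the mean log2 CPM of the 8 with a Pearson r of 0.98 to 0.998, except CCT7 with 0.894 (a description, since each gene is part of that mean). Of 10875 protein-coding genes outside the family with a mean count of at least 100, 537 had an r over 0.9. The 3 most alike were YARS1, the cytosolic tyrosyl-tRNA synthetase (r = 0.994), MTHFD1, a folate enzyme (r = 0.993), and RPL15, a protein of the large ribosomal subunit (r = 0.991). The libraries fall into 3 groups, so these values largely restate a shared difference between groups. YARS1 had log2 fold changes of 0.22 and 0.18, MTHFD1 of 0.17 and 0.15, and RPL15 of 0.12 and 0.11, all called.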

How the data were processed

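The authors trimmed adapters (Trim Galore), removed rRNA reads (SortMeRNA), aligned reads to GRCh38 with STAR, and used UMI-tools where libraries had molecular barcodes. The deposited table holds expected counts per gene, unscaled. The counting tool, annotation release, strand and multi-mapping rules are not given in the sources used here. Expected counts were rounded. Tests used edgeR 4.0.16 in R 4.3.3 (TMM, filterByExpr, robust glmQLFit, glmQLFTest, two-sided) in one fit of 9 libraries with group as the only term (6 residual degrees of freedom), and adjusted p under 0.05 over 19820 genes was called. DESeq2 1.42.0 was an alternative. The biological coefficient of variation was 2.58%. Each fold change is a shift against the rest of its library, and footprints alone do not separate mRNA abundance from translation. The fit was also run on simulated counts with known changes. These held no effect of pool or cell line, so the simulation cannot speak to either. P-values measure only the spread between dishes, which may be technical. Gene positions come from GENCODE v44 (62666 of 63241 identifiers matched) and start-site windows from RefSeq.

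The 8 genes and all lists were chosen with earlier results of these data known. Named were the 8 genes, the 2 called genes of each list with the largest size of log2 fold change, pseudogenes over 1% of their parent, and the 3 genes most alike in profile; CCT6B, HSF1, the marker genes, the genes overlapping a member and the genes that differed between the mutants are named outside this rule.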

Additional observations from a re-analysis of the deposited data

Results flagged for a closer look

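The difference between the mutants was tested for every gene (edgeR), and 11 of the genes in the CCT family and the lists around it passed. All 11 were higher in G245S than in R273H. They were 1 of 8 CCT genes, 1 of 6 tubulin cofactors, 5 of 17 actin and tubulin genes, 1 of 13 other clients and 3 of 12 heat shock response genes. Of all genes tested, 2.59% passed. That share covers all expression levels, while several of the 11 are highly expressed, and the share among such genes is not given here. CCT7 was higher by 0.087 on the log2 scale (adjusted p = 0.0217), with 3 of 3 G245S dishes above all R273H dishes. TBCB was higher by 0.18 (adjusted p = 0.00743), at 81.9 ± 0.951 against 72.3 ± 1.74 CPM (SD, n = 3 dishes). Among the actin and tubulin genes the difference was 0.10 in ACTB (adjusted p = 0.0199), 0.10 in ACTG1 (adjusted p = 0.01003), 0.095 in TUBB (adjusted p = 0.0137), 0.094 in TUBB4B (adjusted p = 0.0220) and 0.16 in TUBG1 (adjusted p = 0.00641). It was 0.11 in the client PLK1 (adjusted p = 0.0163). Among the heat shock response genes it was 0.18 in HSPA1B (adjusted p = 0.00017), 0.14 in HSPA1A (adjusted p = 0.0016) and 0.11 in HSP90AB1 (adjusted p = 0.00549). HSPA1A and HSPA1B are near-identical copies, so how reads were split between them is uncertain.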

How the results depend on the processing

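Each CCT gene was recomputed under 20 alternatives, among them other normalizations, other filters, DESeq2 and leaving out dishes; the fit without dish 3 of every group was chosen after seeing the data. No direction against WT was reversed. Against WT, 8 genes were called in G245S under every alternative except the test against a 1.2-fold change (0 genes). In R273H, 0 genes were called under that test, 7 with no filter, and 7 to 8 when dishes were left out. Between the mutants the count of 1 became 0 with no filter and with the 1.2-fold test, 2 with length and GC trends removed (CCT7 and TCP1), and 0 to 2 when dishes were left out (CCT3 joined CCT7 without dish 3 of each group, 0.057, adjusted p = 0.0488). CCT2 between the mutants turned to -0.0023 with no filter, -0.0017 without R273H dish 1 and -0.0050 without R273H dish 2, and lay between -0.0050 and 0.022 when single dishes were left out. The share of counts in G245S was 0.767% with TMM library sizes and 0.768% with pseudogenes added. The ratio of highest to lowest level was 2.99 (WT), 2.81 (G245S) and 2.81 (R273H) with exonic length, and 1.84, 1.74 and 1.74 with pseudogenes added. Of the 63 genes around the chaperonin, 34 and 30 were called against WT, and DESeq2 called 29 and 27. Between the mutants 10 were called, all higher in G245S, and 13 by DESeq2. For scale, edgeR called 2498 of all 19820 genes up and 2402 down with G245S against WT. With R273H these counts were 2807 and 2900, and between the mutants 513 passed in either direction. Over the same genes DESeq2 called 3564, 4056 and 394 for these comparisons in turn.

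Among genes averaging at least 100 counts, deviations of same-numbered dishes correlated at 0.042 to 0.23, and 8 of 9 libraries matched best with their own number in both other groups, a hint from the data only. With dish number as a replicate block, 8, 8 and 1 CCT genes were called, as without it, and the block changed no other call of a CCT gene; over all genes, calls between the mutants went from 513 to 1262. Group and pool cannot be told apart. For some CCT genes in G245S the spread between dishes is near counting error.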
